A study of Homo sapiens with 8 samples.

Results

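Mitochondrial ribosomal protein genes were examined in mRNA sequencing data from SH-SY5Y, a human neuroblastoma cell line. The members were all protein-coding genes whose symbol begins with MRPL or MRPS and a number. Of 78 such symbols in the annotation used, 76 had transcripts in the deposited table and are described here, out of 52719 genes in all, and MRPL45 and MRPS21 are not analysed here. The 4 differentiated libraries (replicates 21 to 24) are of cells given 9-cis retinoic acid at 1 µM over 7 days, and the 4 undifferentiated libraries (replicates 17 to 20) are of cells with no recorded treatment. Both groups are of the same line and the same serum-containing medium. Whether the libraries of a group are separate cultures is not stated, and the p-values therefore cover the spread among these libraries alone, which may be technical. No time in culture is recorded for the undifferentiated cells, so it cannot be told apart from the treatment.

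Mitochondria keep a small genome that encodes core subunits of the respiratory chain, and they translate its messages on ribosomes of their own. The RNA of these ribosomes is made in the mitochondrion, while all their proteins are encoded in the nucleus, made in the cytosol and imported. Proteins of the large subunit carry the prefix MRPL and those of the small subunit MRPS, with a few exceptions, and inherited defects in many of them impair oxidative phosphorylation.

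Values are in TPM, a transcript's length-corrected share of its library, scaled to the same total in each, and were summed over the transcripts of each gene. Depth is not recoverable from TPM, so no counting interval can be given. Fold changes are log2 of TPM + 1, differentiated over undifferentiated, and calls are from a limma fit over the 17077 genes that averaged at least 1 TPM, at a false discovery rate (Benjamini-Hochberg) below 0.05. Between 16273 and 17370 genes reached 1 TPM in a differentiated library, and between 16265 and 16433 in an undifferentiated one. Lane 7 held undifferentiated replicates 17 and 18 and no differentiated library, and lane 8 held the remaining 6. All 10 noradrenergic neuroblastoma markers were expressed, summing to between 1208 and 1429 TPM in differentiated and between 1611 and 1698 TPM in undifferentiated libraries. Of these markers 7 were called lower and 2, TBX2 and PHOX2A, higher, beside 17.4% and 33.9% of all tested genes. Their median log2 fold change was −1.30, from −2.35 in DBH to 1.48 in TBX2. All 5 retinoic acid target genes examined rose in the differentiated cells. Summed epithelial markers lay between 13.5 and 18.0 TPM in differentiated and between 2.09 and 3.32 TPM in undifferentiated libraries, with KRT5 and KRT14 at 0 in every library and most of the differentiated sum from KRT18. Summed Schwann cell markers lay between 14.7 and 18.2 TPM in differentiated and between 6.24 and 8.50 TPM in undifferentiated libraries, with SOX10 and FOXD3 at 0 in every library. Summed fibroblast markers lay between 138 and 186 TPM in differentiated and between 102 and 116 TPM in undifferentiated libraries. No blood or endothelial marker reached a mean of 1 TPM in either group. The part of other cell types in the values below was not tested, and in bulk RNA fewer cells of a type and less RNA per cell cannot be told apart.

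Of the 76 mitochondrial ribosomal protein genes, 13 rose, 23 fell and 40 did not pass the test. The shares were 17.1% higher and 30.3% lower among the members, beside 33.9% higher and 17.4% lower among all tested genes, and the difference between these shares was not tested. The median log2 fold change was −0.10 over the members and 0.10 over all tested genes, and 55 of the 76 members lay below the median of all genes. The changes were small: 8 members (10.5%) passed 0.5 in either direction on the log2 scale, against 34.6% of all tested genes, and 0 passed 1, against 12.98% of all tested genes. In 36 members (47.4%) no library of either group fell within the range of the other, against 49.6% of all tested genes. Among the 12606 tested protein-coding genes alone, 39.1% rose, 20.0% fell and 57.9% had groups without overlap. The standard error of a member's log2 fold change ran from 0.03 to 0.17, with a median of 0.07.

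**Figure D1:**
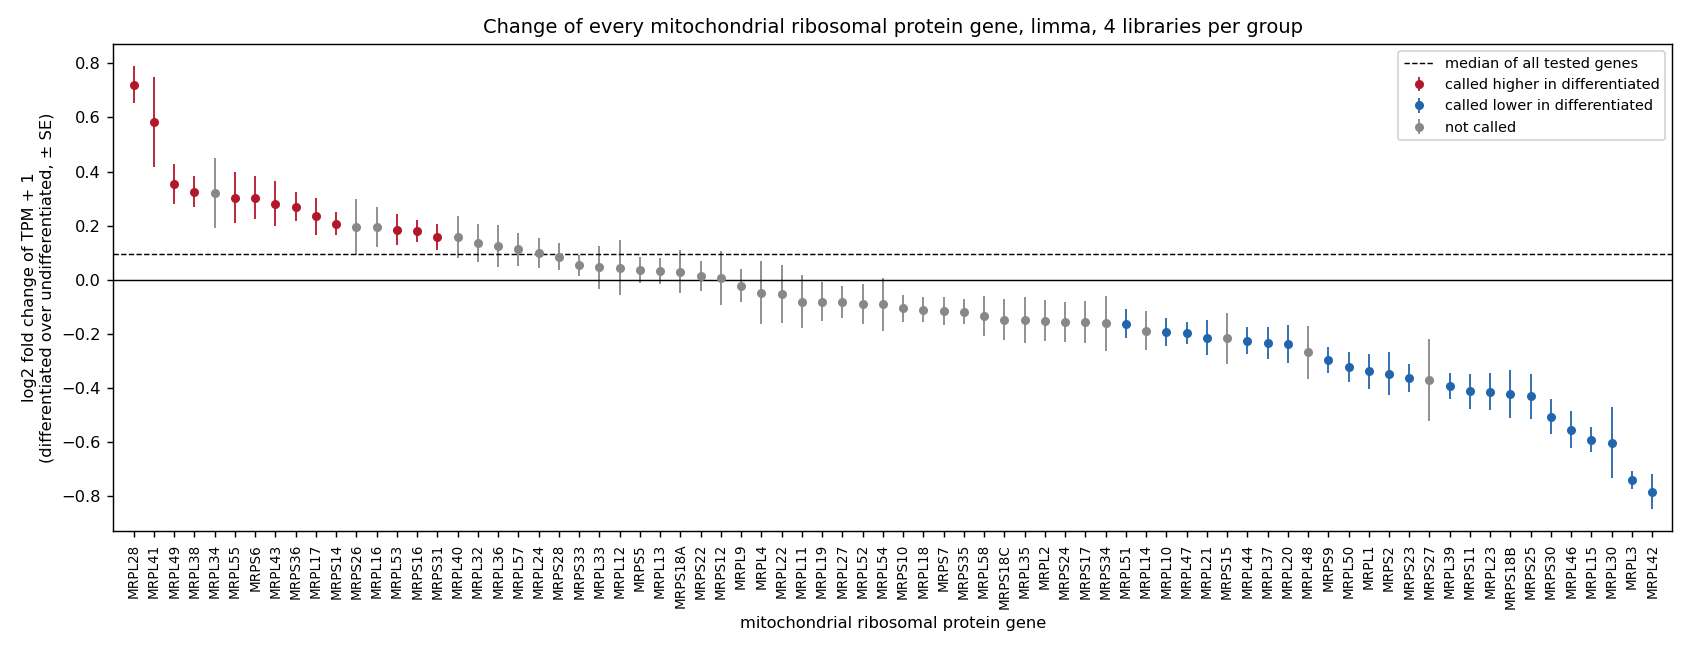
Log2 fold change of TPM + 1, differentiated over undifferentiated, for each of the 76 mitochondrial ribosomal protein genes, with bars of 1 standard error from limma. The genes run from MRPL28 at 0.72 to MRPL42 at −0.78, and the dashed line marks the median of all tested genes at 0.10.

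The number of members called higher depended on the scaling of the libraries. TPM values share a fixed total, and the median of all genes was 0.10 on the deposited values, −0.02 after median-of-ratios scaling and −0.07 after quantile normalization. Under median-of-ratios scaling 2 members rose and 29 fell (background 26.7% and 26.1%), and under quantile normalization 2 rose and 36 fell (background 24.4% and 29.9%). The member median lay below that of all genes by 0.19 on the deposited values, by 0.21 after median-of-ratios scaling and by 0.15 after quantile normalization. All 23 members that fell were also called lower under both scalings, and the 13 that rose kept their sign under both, with MRPL28 and MRPL49 still called. In lane 8 alone, with 2 undifferentiated libraries, 7 members rose and 17 fell (background 26% and 11%).

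**Figure D2:**
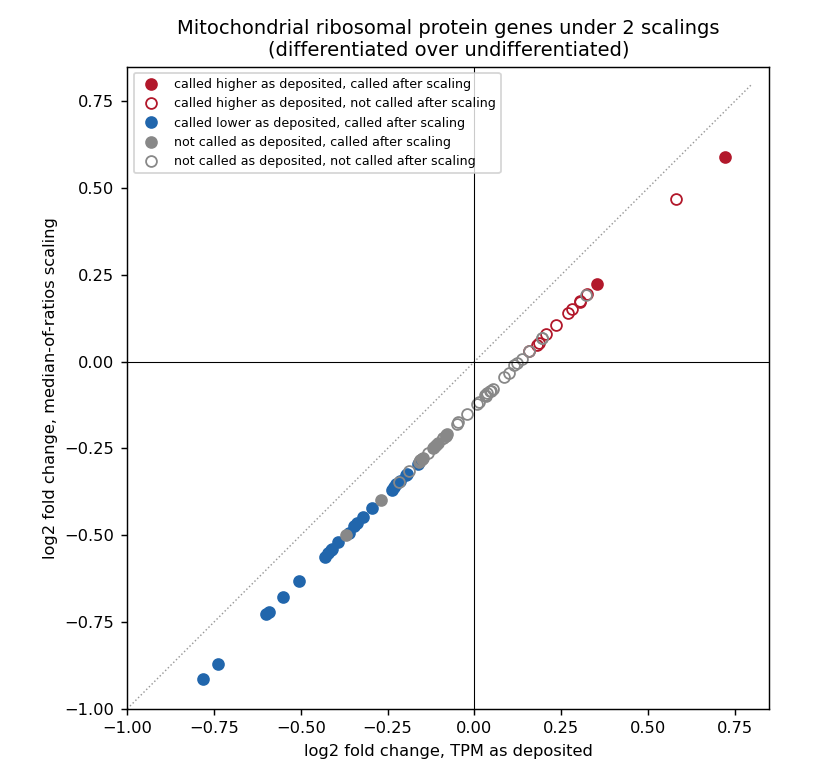
Each point is a mitochondrial ribosomal protein gene, with its log2 fold change on the deposited TPM on the horizontal axis and after median-of-ratios scaling on the vertical axis, differentiated over undifferentiated. All points lie below the dotted line of equality, and among genes called higher only MRPL28 and MRPL49 are filled, meaning still called after scaling.

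The largest falls were in large-subunit genes. MRPL42, a mitochondria-specific protein of the large subunit (chromosome 12, 93467488 to 93516213, plus strand, GRCh38), had 97.8, 81.6, 88.5 and 96.1 TPM in differentiated libraries, against 162, 163, 149 and 154 TPM in undifferentiated libraries. The groups were far apart, and the log2 fold change was −0.78 ± 0.06 (SE; limma adjusted p = 1.87e-05). Its leading transcript, MRPL42-208, averaged 34.3 ± 3.19 TPM in differentiated and 61.3 ± 2.66 TPM in undifferentiated cells (SD, n = 4 each). MRPL3, the homologue of the bacterial protein next to the peptidyl transferase centre (chromosome 3, 131462212 to 131502983, minus strand), had 88.4, 84.4, 84.8 and 84.9 TPM in differentiated libraries, against 145, 140.1, 146 and 143 TPM in undifferentiated libraries. The spread was narrow in both groups, and MRPL3 fell by 0.74 on the log2 scale (SE 0.03; limma adjusted p = 6.33e-07). MRPL46, a protein of the central protuberance of the large subunit (chromosome 15, 88459476 to 88467419, minus strand), had 13.7, 15.2, 14.6 and 12.7 TPM in differentiated libraries, against 22.0, 21.4, 21.2 and 19.7 TPM in undifferentiated libraries. All 4 differentiated libraries lay below all 4 undifferentiated ones, with a log2 fold change of −0.55 ± 0.07 (SE; limma adjusted p = 0.000199).

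The promoter windows of these 3 genes are shown because the motifs that recur across the family, counted further on, lie in them. They are from RefSeq on GRCh38.p14, 250 bases before to 50 after the annotated start, at chr12:93467264-93467563 (plus strand), chr3:131502922-131503221 (minus strand) and chr15:88467339-88467638 (minus strand), printed 5′ to 3′ on the gene's strand. Capitals mark AAGATGGCG, the core bound by YY1, in MRPL42 and MRPL46, and CCGGAAG, a core bound by ETS factors such as GABPA, in MRPL3.
MRPL42: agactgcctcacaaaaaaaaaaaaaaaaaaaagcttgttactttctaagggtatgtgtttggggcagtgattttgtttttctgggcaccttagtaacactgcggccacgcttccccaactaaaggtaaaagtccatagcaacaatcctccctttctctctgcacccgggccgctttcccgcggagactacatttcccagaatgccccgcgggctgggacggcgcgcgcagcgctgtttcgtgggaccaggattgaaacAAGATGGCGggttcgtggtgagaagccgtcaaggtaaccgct
MRPL3: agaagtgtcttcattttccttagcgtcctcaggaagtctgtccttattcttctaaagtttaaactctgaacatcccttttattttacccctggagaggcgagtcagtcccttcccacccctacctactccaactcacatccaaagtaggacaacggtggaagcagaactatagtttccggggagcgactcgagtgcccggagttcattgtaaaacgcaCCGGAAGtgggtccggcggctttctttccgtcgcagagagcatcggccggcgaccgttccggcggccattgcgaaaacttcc
MRPL46: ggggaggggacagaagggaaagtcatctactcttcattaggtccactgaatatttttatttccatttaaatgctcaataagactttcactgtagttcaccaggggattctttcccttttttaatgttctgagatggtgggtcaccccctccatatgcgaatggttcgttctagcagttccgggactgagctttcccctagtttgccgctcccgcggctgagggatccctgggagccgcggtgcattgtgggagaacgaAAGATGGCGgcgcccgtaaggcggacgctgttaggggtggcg
The YY1 core of MRPL42 and that of MRPL46 both begin at base 259 of the window, within the transcribed part, and the ETS core of MRPL3 begins at base 219.

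MRPL15, another homologue of a bacterial large-subunit protein, had 45.2, 49.0, 46.8 and 43.2 TPM in differentiated libraries, against 70.1, 70.2, 70.1 and 68.8 TPM in undifferentiated libraries. The undifferentiated libraries lay within a few percent of each other, and the log2 fold change was −0.59 ± 0.05 (SE; limma adjusted p = 1.31e-05). MRPL30 had 20.7, 20.5, 14.8 and 19.1 TPM in differentiated libraries, against 26.0, 31.8, 25.01 and 33.0 TPM in undifferentiated libraries. It was noisier, with a log2 fold change of −0.60 ± 0.13 (SE; limma adjusted p = 0.00511). MRPS30, which despite its symbol sits in the large subunit, had 22.7, 20.4, 24.4 and 22.6 TPM in differentiated libraries, against 30.2, 34.1, 33.7 and 31.5 TPM in undifferentiated libraries. The groups were apart, and the log2 fold change was −0.51 ± 0.07 (SE; limma adjusted p = 0.000299).

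Falls in the small subunit were led by 2 proteins classed here as mitochondria-specific. That class includes MRPS18B although it is a paralog of bacterial S18, and the matching large-subunit class includes MRPS18A. MRPS25 had 89.7, 69.7, 82.0 and 81.1 TPM in differentiated libraries, against 114, 98.0, 109.8 and 113 TPM in undifferentiated libraries. The highest differentiated library stayed below the lowest undifferentiated one, with a log2 fold change of −0.43 ± 0.08 (SE; limma adjusted p = 0.0026). MRPS18B had 39.5, 35.5, 40.4 and 41.3 TPM in differentiated libraries, against 53.3, 60.2, 53.6 and 45.0 TPM in undifferentiated libraries. The gap between the groups was narrow at undifferentiated replicate 20, and the log2 fold change was −0.42 ± 0.09 (SE; limma adjusted p = 0.00443). The human genome holds 3 paralogs of the bacterial S18 protein, and the other 2 did not pass the test: MRPS18A, which lies in the large subunit, averaged 26.7 ± 3.01 TPM in differentiated and 26.0 ± 0.882 TPM in undifferentiated cells, and MRPS18C averaged 53.4 ± 3.26 TPM in differentiated and 59.3 ± 5.36 TPM in undifferentiated cells (SD, n = 4 each). Whether MRPS18B differs from them in its change was not tested. MRPS18C was called lower in 2 of 18 alternatives. These were without undifferentiated replicate 19 (−0.21, limma adjusted p = 0.0367) and under quantile normalization of all libraries (−0.27, limma adjusted p = 0.0359).

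**Figure D3:**
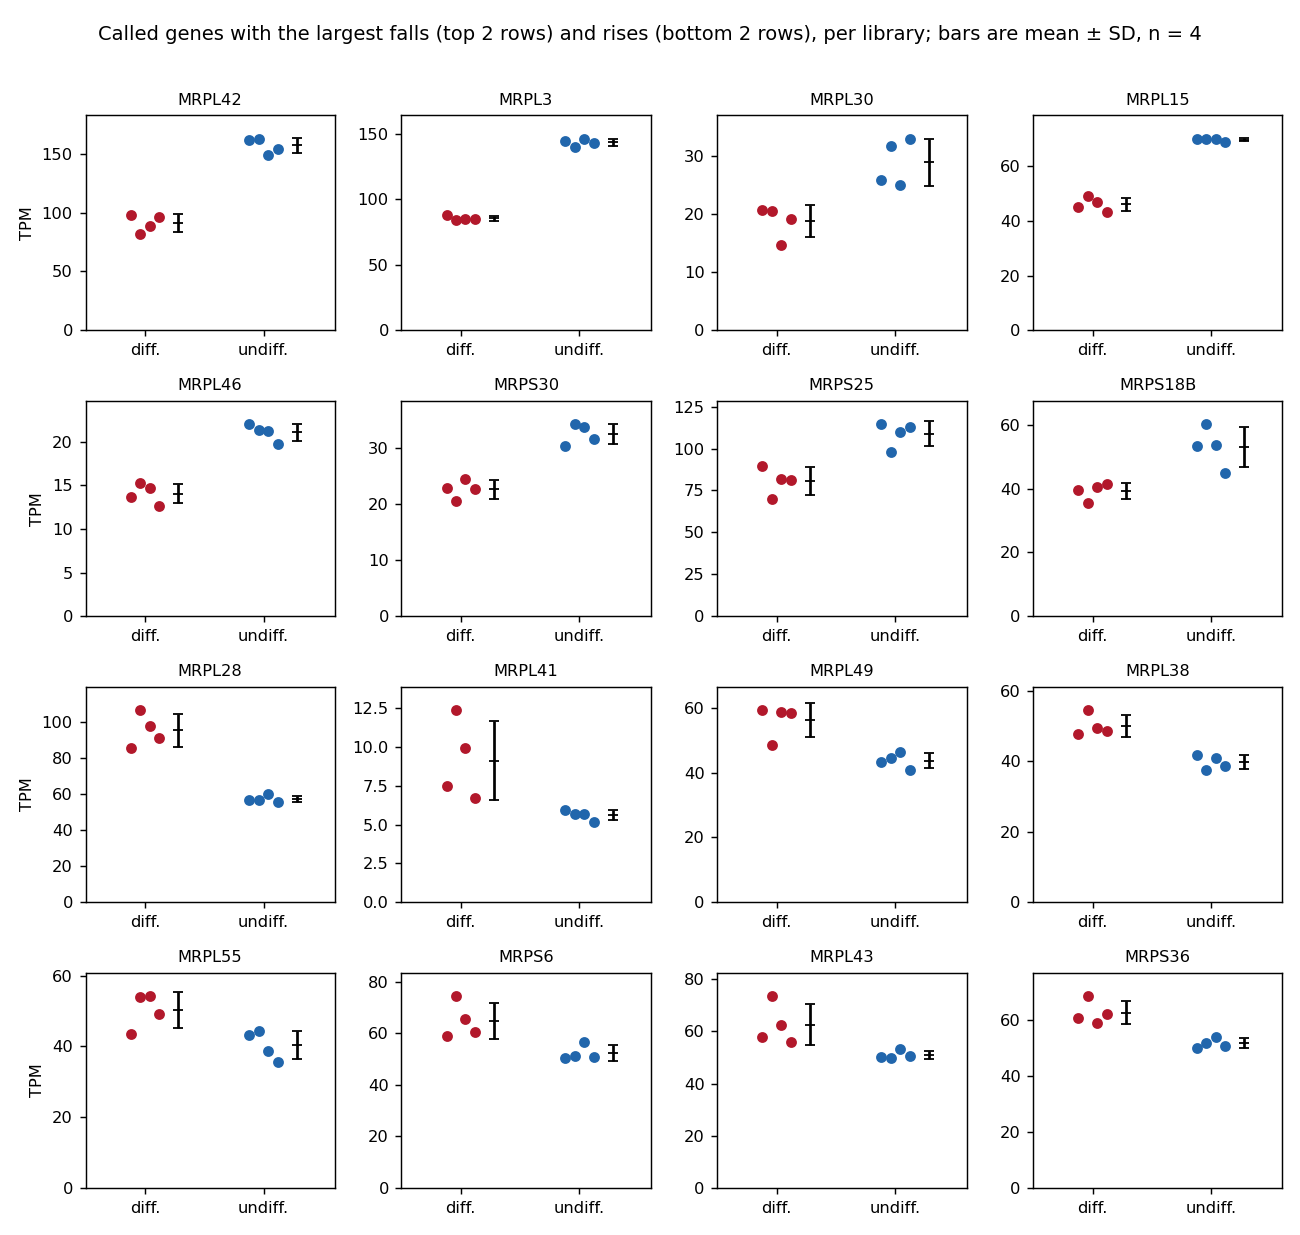
TPM per library of the 8 genes with the largest falls (top rows) and the 8 with the largest rises (bottom rows) among members called by the test, with differentiated libraries (diff., red) left of undifferentiated ones (undiff., blue) and bars for the mean ± SD of 4 libraries. The groups overlap in MRPL55 alone among the 16 genes. MRPL34, at a log2 fold change of 0.32 with overlapping groups, was not called and is not drawn.

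Of the genes that rose, MRPL28 stood out in size. MRPL28, the homologue of bacterial L28 (chromosome 16, 366969 to 371289, minus strand, GRCh38), had 85.5, 106, 97.9 and 91.1 TPM in differentiated libraries, against 56.5, 56.8, 59.9 and 55.6 TPM in undifferentiated libraries. Every differentiated library was above every undifferentiated one, with a log2 fold change of 0.72 ± 0.07 (SE; limma adjusted p = 4.43e-05), and it was 0.59 after median-of-ratios scaling (limma adjusted p = 0.00334). MRPL49, a mitochondria-specific large-subunit protein, had 59.3, 48.6, 58.7 and 58.6 TPM in differentiated libraries, against 43.2, 44.5, 46.4 and 40.8 TPM in undifferentiated libraries. Replicate 22 was the lowest of the differentiated libraries and still above the undifferentiated ones, with a log2 fold change of 0.35 ± 0.07 (SE; limma adjusted p = 0.00418). MRPL38, a protein of the central protuberance as MRPL46 is, had 47.7, 54.4, 49.3 and 48.4 TPM in differentiated libraries, against 41.6, 37.4, 40.9 and 38.7 TPM in undifferentiated libraries. It moved opposite to MRPL46, with a log2 fold change of 0.32 ± 0.06 (SE; limma adjusted p = 0.00162), but was not called after median-of-ratios scaling (0.20, limma adjusted p = 0.133).

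The promoter windows of MRPL28 and MRPL38 are shown for comparison with those of the genes that fell, since they hold the same cores. They lie at chr16:370489-370788 and chr17:75904835-75905134 of GRCh38.p14, both on the minus strand, and capitals mark the ETS core, here read as CTTCCGG on the printed strand, and in MRPL38 also the YY1 core AAGATGGCG.
MRPL28: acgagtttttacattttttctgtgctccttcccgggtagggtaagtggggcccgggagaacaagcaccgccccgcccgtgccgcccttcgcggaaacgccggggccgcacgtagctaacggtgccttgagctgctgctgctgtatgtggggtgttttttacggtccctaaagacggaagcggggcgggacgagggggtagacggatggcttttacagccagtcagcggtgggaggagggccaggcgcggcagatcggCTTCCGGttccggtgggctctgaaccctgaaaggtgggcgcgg
MRPL38: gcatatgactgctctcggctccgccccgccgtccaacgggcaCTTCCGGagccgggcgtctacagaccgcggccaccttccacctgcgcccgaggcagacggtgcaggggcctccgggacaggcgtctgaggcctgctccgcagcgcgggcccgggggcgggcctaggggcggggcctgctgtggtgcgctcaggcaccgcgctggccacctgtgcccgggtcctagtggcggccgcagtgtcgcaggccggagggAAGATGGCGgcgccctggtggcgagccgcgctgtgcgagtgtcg
In MRPL38 the YY1 core begins at base 257, close to its place in MRPL42 and MRPL46, and the ETS core begins at base 43, while that of MRPL28 begins at base 258.

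MRPL41 had the lowest level of the family, at 7.49, 12.4, 9.94 and 6.73 TPM in differentiated libraries, against 5.94, 5.66, 5.67 and 5.20 TPM in undifferentiated libraries. Its differentiated libraries spread widely, and the log2 fold change of 0.58 ± 0.17 (SE; limma adjusted p = 0.0182) was not called after median-of-ratios scaling (0.47, limma adjusted p = 0.092) or without differentiated replicate 23 (0.53, limma adjusted p = 0.0521). MRPS6 averaged 65.0 ± 6.97 TPM in differentiated and 52.3 ± 3.01 TPM in undifferentiated cells (SD, n = 4 each), with a log2 fold change of 0.30 (limma adjusted p = 0.0123). MRPL43 averaged 62.5 ± 7.90 TPM in differentiated and 51.0 ± 1.53 TPM in undifferentiated cells (SD, n = 4 each), with a log2 fold change of 0.28 (limma adjusted p = 0.0212). MRPL55 averaged 50.2 ± 5.09 TPM in differentiated and 40.5 ± 4.01 TPM in undifferentiated cells (SD, n = 4 each), and its groups overlapped (log2 fold change 0.30, limma adjusted p = 0.0259). Both calls were near the threshold: MRPL43 was not called without differentiated replicate 23 or undifferentiated replicate 17, 18 or 20 (limma adjusted p = 0.0514 to 0.0554), nor MRPL55 without differentiated replicate 22 or 23 or undifferentiated replicate 19 or 20 (limma adjusted p = 0.052 to 0.0722). MRPS36, now counted as a subunit of the 2-oxoglutarate dehydrogenase complex and no longer of the ribosome, had 60.6, 68.5, 59.0 and 62.0 TPM in differentiated libraries, against 50.1, 51.8, 54.0 and 50.5 TPM in undifferentiated libraries. The groups did not overlap, and the log2 fold change was 0.27 ± 0.05 (SE; limma adjusted p = 0.00341), and after median-of-ratios scaling it was 0.14 and not called (limma adjusted p = 0.253).

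The 4 most abundant members changed little or modestly. MRPL33, the homologue of bacterial L33, had 451, 578, 519.6 and 458 TPM in differentiated libraries, against 466, 491, 474 and 503 TPM in undifferentiated libraries. The undifferentiated values lay inside the differentiated range, and the log2 fold change of 0.05 ± 0.08 was not called (SE; limma adjusted p = 0.664). MRPL51 had 210.0, 249, 227 and 218 TPM in differentiated libraries, against 250.4, 255, 250.4 and 253 TPM in undifferentiated libraries. It fell by 0.16 on the log2 scale (limma adjusted p = 0.0327), and the call was lost when any single library but differentiated replicate 22 was left out (limma adjusted p = 0.0628 to 0.0825). MRPS33 averaged 198 ± 8.72 TPM in differentiated and 190.3 ± 2.51 TPM in undifferentiated cells and was not called (SD, n = 4 each; limma adjusted p = 0.293). MRPS23, a mitochondria-specific small-subunit protein, had 150.2, 170.2, 152 and 147 TPM in differentiated libraries, against 194, 201, 205 and 195 TPM in undifferentiated libraries. All differentiated libraries were lower, with a log2 fold change of −0.36 ± 0.05 (SE; limma adjusted p = 0.000505).

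The members MRPL12, MRPS12 and MRPL58, each with a well-described role, did not pass the test. MRPL12, the stalk protein that contacts translation factors and has been reported to bind the mitochondrial RNA polymerase, averaged 74.9 ± 10.9 TPM in differentiated and 72.0 ± 3.89 TPM in undifferentiated cells (SD, n = 4 each; limma adjusted p = 0.742). MRPS12, the homologue of the bacterial decoding-centre protein S12, averaged 26.8 ± 3.80 TPM in differentiated and 26.6 ± 1.94 TPM in undifferentiated cells (SD, n = 4 each; limma adjusted p = 0.967). MRPL58, a ribosome-bound peptidyl-tRNA hydrolase that rescues stalled ribosomes, averaged 50.3 ± 4.23 TPM in differentiated and 55.2 ± 3.77 TPM in undifferentiated cells (SD, n = 4 each; limma adjusted p = 0.168). A p above the threshold does not show that these levels are equal. MRPL57, a mitochondria-specific protein whose RNA level was low in the family, averaged 14.3 ± 1.06 TPM in differentiated and 13.1 ± 0.169 TPM in undifferentiated cells (SD, n = 4 each; limma adjusted p = 0.163). It was called higher without differentiated replicate 24 (0.16, limma adjusted p = 0.045). Its log2 fold change was −0.01 under median-of-ratios scaling and −0.08 under quantile normalization, not called under either.

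Grouped by place in the ribosome, the large subunit had 50 measured members, and 8 of them rose and 17 fell (median log2 fold change −0.09). The small subunit had 25, and 4 of them rose and 6 fell (median −0.12). Among all tested genes, 33.9% rose and 17.4% fell. The number of rises depended on the scaling: with median-of-ratios scaling the large subunit had 2 genes called higher and 20 called lower, and the small subunit 0 and 9. With quantile normalization the large subunit had 2 called higher and 23 called lower, and the small subunit 0 and 13. On the same 2 scales 26.7% and 24.4% of all genes rose, and 26.1% and 29.9% fell. Large-subunit proteins with a homologue in bacteria counted 3 rises and 9 falls among 30, with a median of −0.08. Mitochondria-specific large-subunit proteins counted 5 rises and 8 falls among 20, with a median of −0.11, and held the largest fall, MRPL42. Small-subunit proteins with a homologue in bacteria counted 3 rises and 3 falls among 15, with a median of −0.12, and mitochondria-specific ones counted 1 rise and 3 falls among 10, with a median of −0.14. Under either scaling each large-subunit class had 1 rise and neither small-subunit class had any. All these medians lay below the 0.10 of all tested genes, and they were close to each other relative to the range of single members.

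Smaller structural groups were mixed. In the stalk and its base, MRPL10 fell (−0.19 ± 0.05, SE; limma adjusted p = 0.0129), while MRPL11 and MRPL12 did not pass the test. MRPL10 lost its call when only protein coding transcripts were summed (−0.05, limma adjusted p = 0.635). Of 5 measured proteins around the exit of the nascent peptide, MRPL17 rose (0.23 ± 0.07, SE; limma adjusted p = 0.0201), MRPL23 fell (−0.41 ± 0.07, SE; limma adjusted p = 0.0013) and MRPL47 fell (−0.20 ± 0.04, SE; limma adjusted p = 0.00391), and 2 did not pass. MRPL17 lost its call after median-of-ratios scaling (0.11, limma adjusted p = 0.458). These genes fall outside the rule for named genes and were chosen after their values were seen. Of 14 members known from combined oxidative phosphorylation deficiency, 2 rose and 6 fell, with a median of −0.14, the largest change being that of MRPL3. On the deposited values 33.9% of all tested genes rose and 17.4% fell. With median-of-ratios scaling this list had 0 rises and 6 falls (background 26.7% and 26.1%). With quantile normalization it had 0 rises and 7 falls (background 24.4% and 29.9%).

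Summed over all 76 members, the family held 4694, 5339, 5049 and 4782 TPM in differentiated libraries (replicates 21 to 24), against 5235, 5275, 5355 and 5281 TPM in undifferentiated libraries. Replicates 21, 23 and 24 lay below the undifferentiated range and replicate 22 lay inside it, and the log2 ratio of the group means was −0.09. Without MRPL33 the sum lay between 4243 and 4761 TPM in differentiated and between 4769 and 4881 TPM in undifferentiated libraries, with a log2 ratio of −0.11. The large subunit summed to between 3199 and 3712 TPM in differentiated and between 3610 and 3674 TPM in undifferentiated libraries. The small subunit summed to between 1424 and 1559 TPM in differentiated and between 1574 and 1627 TPM in undifferentiated libraries, with no overlap. The ratio of the large to the small sum ran from 2.23 to 2.38 in differentiated and from 2.26 to 2.29 in undifferentiated libraries.

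Differentiated replicate 22 differed from the other 3 differentiated libraries. It held the highest value of its group in 54 of the 76 members, while it was highest in 21.6% and lowest in 54.7% of all tested genes. Relative to the undifferentiated mean, the median member differed by −0.20, 0.03, −0.07 and −0.13 on the log2 scale in replicates 21 to 24, and the median of all tested genes by 0.21, −0.02, 0.08 and 0.15. The library in which the members were highest was thus the library in which all genes were lowest, and the members minus all genes came to −0.41, 0.05, −0.15 and −0.28. Without replicate 22, 12 members rose and 32 fell (background 38.6% and 18.1%). The part of this library's composition in the members' changes was not tested.

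**Figure D4:**
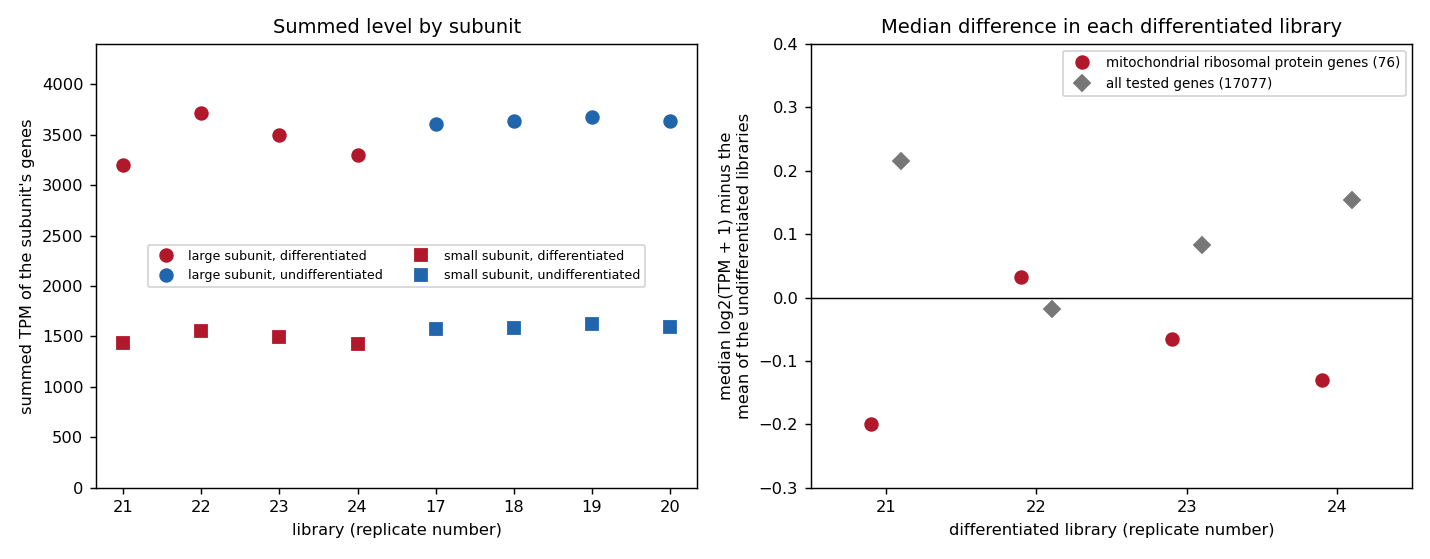
Left, summed TPM of the large-subunit and small-subunit genes in each library, differentiated replicates first, with the large subunit between 3199 and 3712 TPM and the small subunit between 1424 and 1627 TPM. Right, for each differentiated library the median difference in log2(TPM + 1) from the mean of the undifferentiated libraries, over the 76 members (circles) and over all 17077 tested genes (diamonds), where only replicate 22 has the members above all genes.

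Within the family, levels spanned 66.8-fold, from MRPL41 at a mean of 7.38 TPM over the 8 libraries to MRPL33 at 493 TPM, with a median of 50.8 TPM, and 63 members lay between 20 and 100 TPM. Levels in the groups followed each other closely across the 76 genes (Pearson's r of log2 means 0.956, Spearman's rho 0.9496), a description across genes that share libraries and gene lengths. The log2 fold change had almost no relation to level (rho −0.01) or to the length of the leading transcript (rho 0.04). MRPL28 moved to rank 9 by level in differentiated cells, against rank 31 in undifferentiated cells, and MRPL15 to rank 43 in differentiated cells, against rank 23 in undifferentiated cells. The coefficient of variation between libraries had a median over members of 8.31% in differentiated and 4.54% in undifferentiated cells. The members lay on 21 chromosomes.

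Because the table is per transcript, the share of each transcript in its gene could be tested. Among 128 transcripts of 58 members, 4 changed their share by 10 percentage points or more at a limma adjusted p under 0.05, beside 2.4% of the 22951 transcripts tested in all genes. MRPL28-201, the leading transcript of MRPL28, made up 52.5% ± 1.44 of the gene in differentiated and 71.8% ± 4.87 in undifferentiated cells (SD, n = 4 each; limma adjusted p = 0.0132). MRPL28-206, a shorter transcript whose annotation is incomplete at its 3′ end, made up 18.3% ± 3.53 in differentiated and 4.57% ± 2.38 in undifferentiated cells (SD, n = 4 each; limma adjusted p = 0.0180). In TPM it held 18.0, 14.2, 20.1 and 16.7 in differentiated libraries, against 2.53, 0.864, 4.37 and 2.79 in undifferentiated libraries, without overlap, while MRPL28-201 averaged 50.1 ± 5.98 TPM in differentiated and 41.0 ± 2.31 TPM in undifferentiated cells (SD, n = 4 each). The call for MRPL28-206 held in 8 of 12 alternatives, and was lost, besides lane 8 alone, without differentiated replicate 23 or undifferentiated replicate 17 or 20. That for MRPL28-201 held in 11 of 12. MRPS28-204 made up 22.2% ± 3.66 of MRPS28 in differentiated and 12.2% ± 2.23 in undifferentiated cells (SD, n = 4 each; limma adjusted p = 0.0463), with no call for the gene as a whole (0.09, limma adjusted p = 0.201) unless differentiated replicate 24 was left out (0.13, limma adjusted p = 0.0222). The gene's log2 fold change was −0.04 under median-of-ratios scaling and −0.03 under quantile normalization, not called under either. The difference in share of MRPS28-204, 10.007 percentage points, was just above the minimum of 10, and was called in 4 of 12 alternatives. It was lost when any single library other than differentiated replicate 24 was left out.

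In MRPS31, a mitochondria-specific small-subunit protein, transcripts ran in opposite directions. Its protein coding transcript MRPS31-201 made up 65.6% ± 2.28 of the gene in differentiated and 80.2% ± 1.76 in undifferentiated cells (SD, n = 4 each; limma adjusted p = 0.00996). In TPM this transcript held 23.5, 24.0, 24.8 and 23.0 in differentiated libraries, against 26.4, 26.8, 25.2 and 25.8 in undifferentiated libraries, so it was lower in every differentiated library. Its 3 transcripts annotated as processed, with no open reading frame, summed to 12.5 ± 1.08 TPM in differentiated and 6.46 ± 0.858 TPM in undifferentiated cells (SD, n = 4 each). The gene sum was called higher (0.16 ± 0.05, SE; limma adjusted p = 0.0228), and the protein coding transcript alone was called lower (−0.12, limma adjusted p = 0.03999). The call on the sum was lost without differentiated replicate 23 or 24 or undifferentiated replicate 19 or 20 (limma adjusted p = 0.0578 to 0.0693). A pseudogene, MRPS31P5, shares sequence with MRPS31 and averaged 11.2 ± 3.52 TPM in differentiated and 14.2 ± 2.15 TPM in undifferentiated cells (SD, n = 4 each), and how reads were divided between them was not tested. In lane 8 alone none of the 4 shares was called (limma adjusted p = 0.138 to 0.339), where 35 of 22734 transcripts of all genes were.

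**Figure D5:**
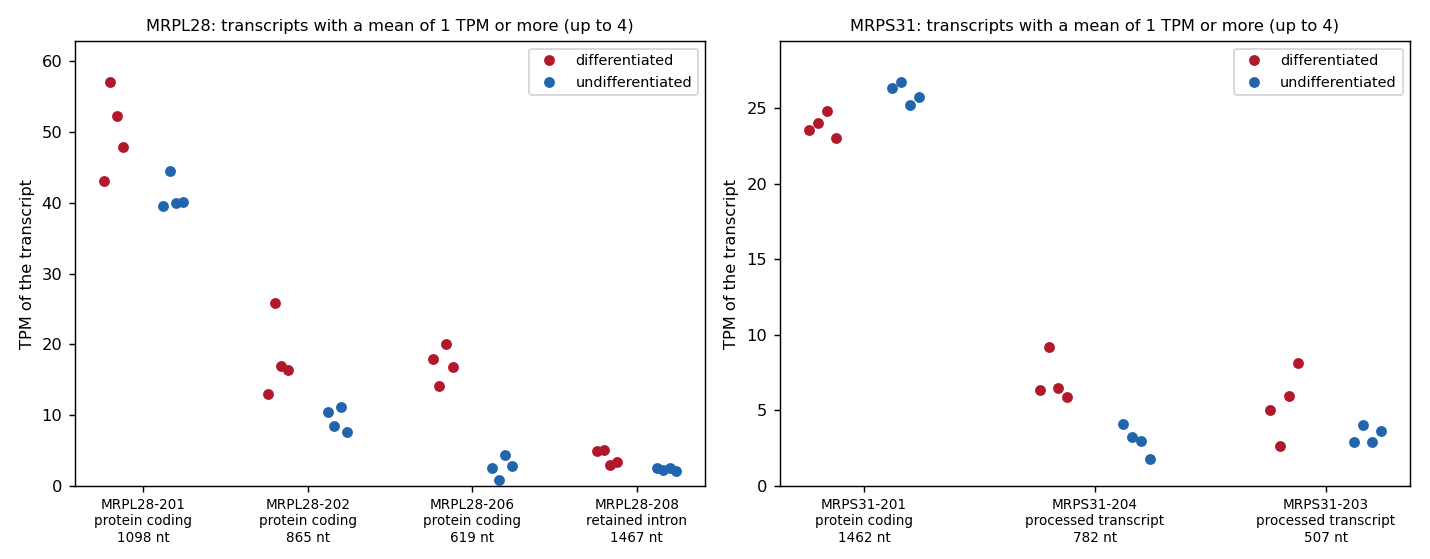
TPM of the main transcripts of MRPL28 (left) and MRPS31 (right) in each library, differentiated (red) left of undifferentiated (blue), with the annotated type and length in nucleotides under each. MRPL28-206 lies between 14.2 and 20.1 TPM in differentiated and between 0.864 and 4.37 TPM in undifferentiated libraries, and MRPS31-201 is lower in differentiated libraries while MRPS31-204 is higher.

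Across the family the leading transcript was annotated as protein coding in 72 of 76 members, and protein coding transcripts held a median of 93.0% of a member's TPM in differentiated and 92.7% in undifferentiated cells. In 24 members, however, protein coding transcripts held under 80% of TPM, averaged over the 8 libraries. Among them were MRPS25 (27.6%), MRPL38 (32.0%), MRPS30 (45.2%) and MRPL42 (72.0%). An antisense RNA next to a member can share reads with it unless counting used strand, which is not given in the sources used here. MRPL20-AS1 averaged 24.5 ± 2.32 TPM in differentiated and 13.996 ± 0.918 TPM in undifferentiated cells, while MRPL20 averaged 154 ± 14.6 TPM in differentiated and 181 ± 7.77 TPM in undifferentiated cells (SD, n = 4 each).

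Promoter windows were found for 67 of the 76 members and were searched on both strands for 5 motifs. The ETS core CCGGAAG was in 28 windows (41.8%), against 14.2% of 15842 protein-coding windows of the same length. The YY1 core AAGATGGCG was in 13 windows (19.4%), against 2.74% of all. Either core was in 37 windows (55.2%), against 16.3% of all, and both were in 4, with no overlapping matches. The other motifs were near the share of all windows: the palindrome bound by NRF1 in 1 window (MRPL17; 1.49% against 1.75%), the E-box CACGTG read by MYC in 5 (7.46% against 8.88%), and AGGTCA, the hexamer contained in retinoic acid response elements, in 10 (14.9% against 11.7%).

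Windows with these cores belonged to members of every outcome. The ETS core was in 6 of 12 windows of members that rose, 6 of 19 that fell and 16 of 36 that were not called, and the YY1 core in 1 of 12, 5 of 19 and 7 of 36. The median log2 fold change was −0.04 with the ETS core and −0.12 without it, and −0.11 with the YY1 core and −0.08 without it. A match is a description of letters in a window and was not tested as a binding site.

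The 5 proteins of the mitochondrial ribosome whose symbols are of a different kind had a median log2 fold change of 0.17. They had 1 rise and 0 falls on the deposited values, beside 33.9% and 17.4% of all genes. Under either other scaling they had 0 rises and 2 falls, those of DAP3 and PTCD3. On those scales 26.1% (median of ratios) and 29.9% (quantile) of all genes fell. DAP3, a GTP-binding protein of the small subunit, had 201, 172, 187 and 198 TPM in differentiated libraries, against 208, 197, 203 and 209 TPM in undifferentiated libraries. The groups overlapped and it was not called (−0.11 ± 0.05, SE; limma adjusted p = 0.122), although it was under median-of-ratios scaling (−0.24, limma adjusted p = 0.000807). PTCD3, a pentatricopeptide repeat protein of the small subunit named here after its values were seen, had 119, 78.2, 89.6 and 113 TPM in differentiated libraries, against 129.8, 123.4, 123.1 and 124.3 TPM in undifferentiated libraries. The groups did not overlap, yet it was not called on the deposited values (−0.34 ± 0.13, SE; limma adjusted p = 0.0535), and it was under median-of-ratios scaling (−0.47, limma adjusted p = 0.0011). CHCHD1, also of the small subunit, averaged 61.5 ± 3.99 TPM in differentiated and 54.6 ± 1.51 TPM in undifferentiated cells (SD, n = 4 each; log2 fold change 0.17, limma adjusted p = 0.0315). Its call was lost under median-of-ratios scaling (0.04, limma adjusted p = 0.783) and without differentiated replicate 23 or 24 or undifferentiated replicate 17, 18 or 20 (limma adjusted p = 0.0706 to 0.0839).

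Of 15 mitochondrial translation factors and partners, 2 rose and 6 fell, with a median of −0.04, beside 33.9% and 17.4% of all genes. Under either other scaling none was called higher, and 6 (median of ratios) or 9 (quantile) were called lower. On those scales 26.7% and 24.4% of all genes were called higher, and 26.1% and 29.9% lower. LRPPRC, which with SLIRP stabilises mitochondrial messenger RNAs, had 66.8, 54.8, 62.6 and 64.7 TPM in differentiated libraries, against 106, 109.99, 109 and 109 TPM in undifferentiated libraries. The groups were far apart (−0.79 ± 0.06, SE; limma adjusted p = 1.39e-05). SLIRP averaged 286 ± 34.8 TPM in differentiated and 387 ± 7.65 TPM in undifferentiated cells (SD, n = 4 each; −0.44, limma adjusted p = 0.00213). PDF, the mitochondrial peptide deformylase, averaged 8.75 ± 0.651 TPM in differentiated and 6.37 ± 0.448 TPM in undifferentiated cells (SD, n = 4 each; 0.40, limma adjusted p = 0.00241), and its call was lost under median-of-ratios scaling (limma adjusted p = 0.0509). TUFM, the elongation factor that brings aminoacyl-tRNA to the ribosome, averaged 111 ± 10.4 TPM in differentiated and 122 ± 5.10 TPM in undifferentiated cells and was not called (SD, n = 4 each; limma adjusted p = 0.141), but was without differentiated replicate 22 (−0.19, limma adjusted p = 0.0208). It was also called lower under quantile normalization (−0.23, limma adjusted p = 0.0454) and with protein coding transcripts alone (−0.15, limma adjusted p = 0.0323).

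Of 27 tested genes for ribosome assembly and ribosomal RNA modification, 6 rose and 7 fell, with a median of −0.04, beside 33.9% and 17.4% of all genes. Under either other scaling 12 were called lower, and 1 (median of ratios) or 2 (quantile) were called higher. On those scales 26.1% and 29.9% of all genes were called lower, and 26.7% and 24.4% higher. GTPBP10, a GTPase of large-subunit assembly, fell (24.8 ± 3.497 TPM in differentiated and 33.9 ± 3.01 TPM in undifferentiated cells; limma adjusted p = 0.00899). MALSU1, which binds the large subunit late in assembly, averaged 62.3 ± 6.13 TPM in differentiated and 46.5 ± 2.59 TPM in undifferentiated cells (SD, n = 4 each; 0.41, limma adjusted p = 0.00232). MPV17L2, an inner-membrane protein of ribosome assembly, averaged 12.1 ± 1.15 TPM in differentiated and 8.98 ± 0.520 TPM in undifferentiated cells (SD, n = 4 each; 0.39, limma adjusted p = 0.00326). Both rises were lost under median-of-ratios scaling (limma adjusted p = 0.0877 and 0.0809), and that of MALSU1 also when only protein coding transcripts were summed (0.09, limma adjusted p = 0.473). Of 17 mitochondrial aminoacyl-tRNA synthetases, 1 rose and 3 fell, with a median of −0.14 (with the other scalings 0 called higher, and 7 lower for median of ratios or 9 for quantile). MARS2 had the largest fall of them (2.87 ± 0.189 TPM in differentiated and 6.65 ± 0.444 TPM in undifferentiated cells; −0.98, limma adjusted p = 1.32e-05), and FARS2 rose (0.36, limma adjusted p = 0.00427), a call lost under median-of-ratios scaling (limma adjusted p = 0.0591).

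Of 9 genes that copy and transcribe mitochondrial DNA, 6 fell and 0 rose, with a median of −0.38. Among all tested genes 17.4% fell and 33.9% rose, with a median of 0.10. Under either other scaling 7 were called lower and 0 higher. On those scales 26.1% (median of ratios) and 29.9% (quantile) of all genes were called lower. Whether this list differs from the ribosomal protein genes was not tested. TWNK, the replicative helicase, averaged 58.2 ± 11.9 TPM in differentiated and 121 ± 9.497 TPM in undifferentiated cells (SD, n = 4 each; −1.07, limma adjusted p = 0.000373). TFAM, which packages mitochondrial DNA and starts its transcription, had 43.2, 31.6, 34.3 and 38.4 TPM in differentiated libraries, against 67.1, 70.3, 65.6 and 66.6 TPM in undifferentiated libraries. The groups were far apart (−0.86 ± 0.09, SE; limma adjusted p = 7.9e-05). TFB2M, its partner at the promoter, fell (36.2 ± 0.521 TPM in differentiated and 51.3 ± 1.18 TPM in undifferentiated cells; limma adjusted p = 1.07e-05), and so did POLRMT, the mitochondrial RNA polymerase (16.3 ± 2.50 TPM in differentiated and 21.4 ± 0.770 TPM in undifferentiated cells; limma adjusted p = 0.0102).

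Of 9 tested nuclear regulators of mitochondrial genes, 1 rose and 5 fell, beside 33.9% and 17.4% of all genes. Under the other scalings 6 (median of ratios) or 7 (quantile) were called lower, beside 26.1% and 29.9% of all genes. In each of them 1 was called higher, beside 26.7% and 24.4% of all genes. NRF1, nuclear respiratory factor 1, averaged 28.8 ± 2.27 TPM in differentiated and 16.6 ± 0.229 TPM in undifferentiated cells (SD, n = 4 each; 0.76, limma adjusted p = 1.73e-05), a call lost when only its protein coding transcripts were summed (0.16, limma adjusted p = 0.0578). GABPA, an ETS factor, averaged 28.2 ± 2.92 TPM in differentiated and 27.2 ± 0.326 TPM in undifferentiated cells and was not called (SD, n = 4 each; limma adjusted p = 0.676). MYC lay between 5.21 and 6.16 TPM in differentiated libraries, against 51.1 to 55.5 TPM in undifferentiated libraries. It showed the largest change of these genes (−2.99 ± 0.06, SE; limma adjusted p = 1.17e-08), and MYCN fell too (−0.90, limma adjusted p = 0.000204), at a mean of 0.611 TPM in differentiated and 2.01 TPM in undifferentiated cells. PPARGC1A was under 1 TPM and not tested.

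The 83 tested cytosolic ribosomal protein genes counted 1 rise and 70 falls, with a median of −0.42 on the deposited values, −0.55 after median-of-ratios scaling and −0.16 after quantile normalization. Among all tested genes 33.9% rose and 17.4% fell on the deposited values. The shares were 26.7% and 26.1% after median-of-ratios scaling, and 24.4% and 29.9% after quantile normalization. On the same 3 scales the mitochondrial ribosomal protein genes had medians of −0.10, −0.23 and −0.21, so which family had the lower median depended on the normalization. By calls, 70 of the 83 cytosolic genes fell after median-of-ratios scaling and 51 after quantile normalization, with 0 rises in each. Of the 76 mitochondrial ribosomal protein genes, 29 and 36 fell on these 2 scales. The difference between the families was not tested. The 83 tested nuclear genes of the respiratory chain counted 9 rises and 25 falls, with a median of −0.08, near that of the mitochondrial ribosomal protein genes. With median-of-ratios scaling 1 of them was called higher and 30 lower, and with quantile normalization 8 were called higher and 37 lower. The 13 messages of the mitochondrial genome, which the mitochondrial ribosome translates, counted 3 rises and 1 fall, with a median of 0.03, but none called higher and 1 lower with median-of-ratios scaling, and 2 called higher and none lower with quantile normalization. The ribosomal RNA MT-RNR1 averaged 1698 ± 131 TPM in differentiated and 1337 ± 98.2 TPM in undifferentiated cells, and MT-RNR2 9265 ± 275 TPM in differentiated and 7994 ± 255 TPM in undifferentiated cells (SD, n = 4 each). Both RNAs were called higher on the deposited values and not after median-of-ratios scaling (limma adjusted p = 0.145 and 0.539), and the libraries came from an mRNA kit, whose recovery of these RNAs was not tested.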

How the data were processed

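Transcript levels were measured in 8 libraries of SH-SY5Y cells, 4 differentiated and 4 undifferentiated, grouped by the cell type label. Per the labels' protocols, libraries were made from total RNA (RNeasy) with a stranded mRNA kit. The authors deposited TPM for 194993 Ensembl transcripts. Salmon and FastQC 0.11.2, with build GRCh37, are named per the submitters' processing notes. Not given in the sources used here are Salmon's version, settings, annotation and strand use. TPM keeps no depth, so none could be stated.

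Transcripts were matched to GENCODE 29 (GRCh38) by identifier without version (180930 of them, 92.8%), and positions are on GRCh38. TPM was summed per gene. Genes averaging at least 1 TPM entered a limma fit (version 3.58.1, R 4.3.3, lmFit and eBayes with trend) of log2(TPM + 1), a pseudocount of 1, on the group alone, with two-sided p adjusted by Benjamini-Hochberg over all 17077 genes. Fold changes of low genes are understated on this scale. Transcript shares were tested with limma on their arcsine square root, where both group means of the gene reached 5 TPM and the mean share lay within 10% to 90%. The fits were checked on simulated data. Motifs were searched in RefSeq windows. Other steps ran in Python 3.11.15 (pandas 2.3.3).

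The members and lists were chosen with earlier results of these data known. Genes named were the 8 largest rises and 8 largest falls among called members, the 4 highest and 4 lowest by level, 8 members fixed by name, those with a called transcript share, and in context lists the 3 largest called changes and 8 genes fixed by name. A gene that this rule names is not reported here. Alternatives were other pseudocounts, filters, scalings, transcript sets, lane 8 alone, each library left out, limma without a trend and an exact permutation test.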

Additional observations from a re-analysis of the deposited data

Results flagged for a closer look

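In 6 of 104 groups of 4 libraries examined among the named genes, a library stood far from the other 3 (Dixon's ratio above its 95% critical value), and chance alone gives about 1 in 20 such groups. MRPL49 was lowest in differentiated replicate 22, at 48.6 TPM, with the next at 58.6 TPM. MRPS28 was lowest in differentiated replicate 24, at 61.8 TPM, with the next at 70.0 TPM. MRPL3 was highest in differentiated replicate 21, at 88.4 TPM, with the next at 84.9 TPM. MRPS6 was highest in undifferentiated replicate 19, at 56.8 TPM, with the next at 51.2 TPM. MRPL15 was lowest in undifferentiated replicate 20, at 68.8 TPM, with the next at 70.1 TPM. PDF was lowest in undifferentiated replicate 19, at 5.70 TPM, with the next at 6.52 TPM. In MRPL3, MRPL15, MRPL49, MRPS6 and PDF the groups did not overlap with the distant library included, and in MRPS28 they did.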

How the results depend on the processing

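Counts of 13 rises and 23 falls among mitochondrial ribosomal protein genes came to 2 rises under median-of-ratios scaling, to 2 rises and 36 falls under quantile normalization and to 7 rises in lane 8 alone. The exact permutation test, whose smallest two-sided p is 0.0286 with 4 libraries against 4, gave 0 rises, 0 falls and 0 calls among all genes after adjustment (smallest adjusted p = 0.0576), with 36 members and 8475 genes at an unadjusted p under 0.05. The median log2 fold change moved to −0.23 under median-of-ratios scaling and −0.21 under quantile normalization, and the log2 ratio of the summed TPM to −0.21 and −0.19. Leaving out 1 library at a time gave 9 to 16 rises and 20 to 32 falls, and 2 to 4 transcripts with a changed share instead of 4. That count was 0 in lane 8 alone, and the cause of these shifts was not tested. MRPS31 turned to −0.12 when only protein coding transcripts were summed, which leaves out its processed transcripts. Of 910 single-gene values under an alternative, 800 kept the same call or lack of one, 99 lost the call and 10 gained it. The remaining 1, that of MRPS31, was called in the opposite direction. Genes not called in either fit counted as kept even where the sign changed. MRPL33 was such a gene (0.05 on the deposited values, −0.09 under median-of-ratios scaling). Of the 99 lost calls, 36 were under the exact permutation test, which could call no gene. Of the 23 falls, 16 held in all 18 refits. No paired analysis was possible because no replicate number occurs in both groups. Depth behind the values is unknown, so the error of low values such as those of MRPL41 cannot be stated beyond the spread between libraries.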
